A study of Drosophila melanogaster with 6 samples.

Results

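The COPII coat and ER exit genes followed here are *Sec23*, *Sec24AB*, *Sec24CD*, *Sec13*, *Sec31*, *Sar1*, *Sec16* and *Tango1*. They were taken by symbol from the 23932 entries of the deposited RNA-seq table, where all 8 were found, and all 8 passed the filter on low values. Total RNA came from salivary glands (SGs) of wandering larvae at the third instar, with *w1118*, a white-eyed laboratory strain, as control (replicates 1 and 4, n = 2 libraries) and the *de2f1b* mutant (replicates 1, 2, 3 and 4, n = 4 libraries). The mutant allele removes a microexon of *E2f1*, so that the alternatively spliced *de2f1b* isoform of this transcription factor is lost while the canonical isoform can still be made. The labels name the genotype as de2f1b only, and whether the RNA-seq larvae carried the allele in 2 copies or over a deficiency is not given in the sources used here. The number of glands or larvae pooled in a library is not given either.

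COPII is the protein coat that buds transport carriers from the ER. The small GTPase Sar1 is loaded with GTP at the ER membrane and recruits Sec23 and Sec24, the inner layer, in which Sec23 stimulates GTP hydrolysis by Sar1 and Sec24 binds the cargo. Sec13 and Sec31 then assemble the outer cage, Sec16 marks and organizes the ER exit sites, and Tango1 spans the ER membrane at these sites and helps to load bulky cargo such as collagen. The larval SG is an exocrine gland that passes large amounts of mucin-like glue proteins through this step.

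The study also measured *Sec23* by RT-qPCR, a member for which a second assay exists. Its primer pair is shown as a record of that assay, and which of the gene's transcripts the pair reads was not tested. The values of the assay were not analysed here, and the position of the primers within the gene was not searched.
*Sec23* forward primer: tcatgggcgattcgttcaac
*Sec23* reverse primer: tcacattcagcgacacacac

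In BDGP6.54, an annotation of the BDGP6 genome that the submitters' processing notes name, *Sec23* (FBgn0262125) lies on chromosome 3R from 5649065 to 5652629 and *Sar1* (FBgn0038947) on 3R from 22356685 to 22360711. *Sec13* (FBgn0024509) is the remaining member on 3R, from 23356278 to 23358531. These 3 genes share no exon sequence with another annotated gene, and neither do *Sec16* (FBgn0052654, chromosome X, 12596047 to 12609910) and *Tango1* (FBgn0286898, chromosome 2L, 6649388 to 6654574). The other members overlap antisense genes (genes on the opposite strand) in part of their exons. The share was 9.88% in *Sec24AB* (FBgn0033460, chromosome 2R, 9876232 to 9882357) and 10.3% in *Sec24CD* (FBgn0262126, chromosome 2L, 2231106 to 2236844). In *Sec31* (FBgn0033339, chromosome 2R, 8893613 to 8898798) it was 9.23%. Whether the counting used the strand is not given in the sources used here, so reads in these stretches cannot be assigned. The annotation lists between 2 transcripts (*Sec13*) and 7 (*Sec23*) per member, and the deposited values do not separate them.

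The deposited values are normalized counts, the reads on each gene divided by 1 size factor per library. The libraries held 56495956 to 94907006 reads on genes, and 1 read was worth a normalized count of 0.782 to 1.37, so that counting error is small for genes as abundant as these. *E2f1* had normalized counts of 12544 and 18666 in *w1118* and of 12896, 10267, 9304 and 7190 in *de2f1b*, which do not separate the groups, and counts per gene cannot show the loss of a microexon. Of the markers of the SG, the 6 listed were detected in every library, with a summed normalized count between 4996900 and 12477700. Markers of the fat body, which adheres to the gland, summed to between 3102670 and 6073230. Of the 7 tested, 3 had a lower fitted level in *de2f1b* and 4 a higher one. In limma 1 was higher at an adjusted p under 0.05 (3.17% of all genes). One of the 8, the lipoprotein gene *apolpp*, was higher in *de2f1b*, with 81305 and 72114 in *w1118* and 231289, 220946, 166196 and 292194 in *de2f1b* (limma, adjusted p = 0.0430, lost in 5 of the 6 fits that leave out a library). The 8 ring gland markers summed to 17352 and 22961 in *de2f1b* replicates 3 and 4 and to between 4189 and 8661 in the others. In 7 of them, such as *phm* (4061 and 4865, against at most 10.7), both replicates were above all other libraries, and the exception, *sro*, was highest in *de2f1b* replicates 1 and 2. Muscle markers summed to 88390 and 162937 in those 2 libraries and to at most 52510 in the others. Of the 8 hemocyte markers, the phagocytosis receptor gene *eater* was lower in *de2f1b*, with 429 and 378 in *w1118* and 109 to 172 in the mutants (limma, adjusted p = 0.0439, lost when any 1 library was left out). It was the 1 called lower (1.07% of all genes). Other hemocyte markers went the opposite way, such as *NimC1* with 95.9 and 122 in *w1118* and 186 to 260 in the mutants. In every mutant library 3 of the 8 lay below both controls (16.0% of all genes) and 2 above both (17.4%).

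*Sec23*, which encodes the inner coat subunit that activates Sar1, was the member with the clearest difference between the genotypes. Its normalized count was 31184 and 52590 in *w1118* replicates 1 and 4, and 25760, 26284, 17557 and 19205 in *de2f1b* replicates 1 to 4. All mutant libraries lay below both controls, as in 16.0% of all genes tested, and no other member showed this. The 2 controls were themselves far apart, replicate 4 being 68.6% above replicate 1, while the nearest mutant library, replicate 2, was 0.25 below *w1118* replicate 1 on the log2 scale.

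The cargo-binding partners of Sec23 had overlapping groups. *Sec24CD* stood at 25281 and 44510 in *w1118* and at 26771, 26172, 17325 and 16919 in *de2f1b*, so that mutant replicates 1 and 2 lay above the lower control. *Sec24AB*, the less abundant paralog, had 12752 and 18300 in *w1118* and 12641, 13413, 8675 and 7722 in *de2f1b*. Here replicate 1 lay just under the lower control, replicate 2 above it, and replicates 3 and 4 well below.

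In the outer cage, *Sec13* had normalized counts of 14669 and 24860 in *w1118* and of 13028, 14808, 9235 and 10378 in *de2f1b*. Only mutant replicate 2 reached the lower control, by a narrow margin. *Sec31*, whose product pairs with Sec13 to form the cage edges, had 20943 and 36091 in *w1118* and 24218, 23584, 15557 and 18005 in *de2f1b*, with replicates 1 and 2 between the controls.

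*Sar1*, the GTPase that starts coat assembly, varied least among the mutant libraries. It stood at 22114 and 36662 in *w1118* and at 23914, 24314, 16783 and 20454 in *de2f1b*. The scaffold gene *Sec16* had 16692 and 28198 in *w1118* and 21403, 21540, 13229 and 11764 in *de2f1b*. *Tango1* had 13791 and 24426 in *w1118* and 17340, 16540, 10872 and 10090 in *de2f1b*. In these 3 genes the mutant libraries lay on either side of *w1118* replicate 1.

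**Figure D1:**
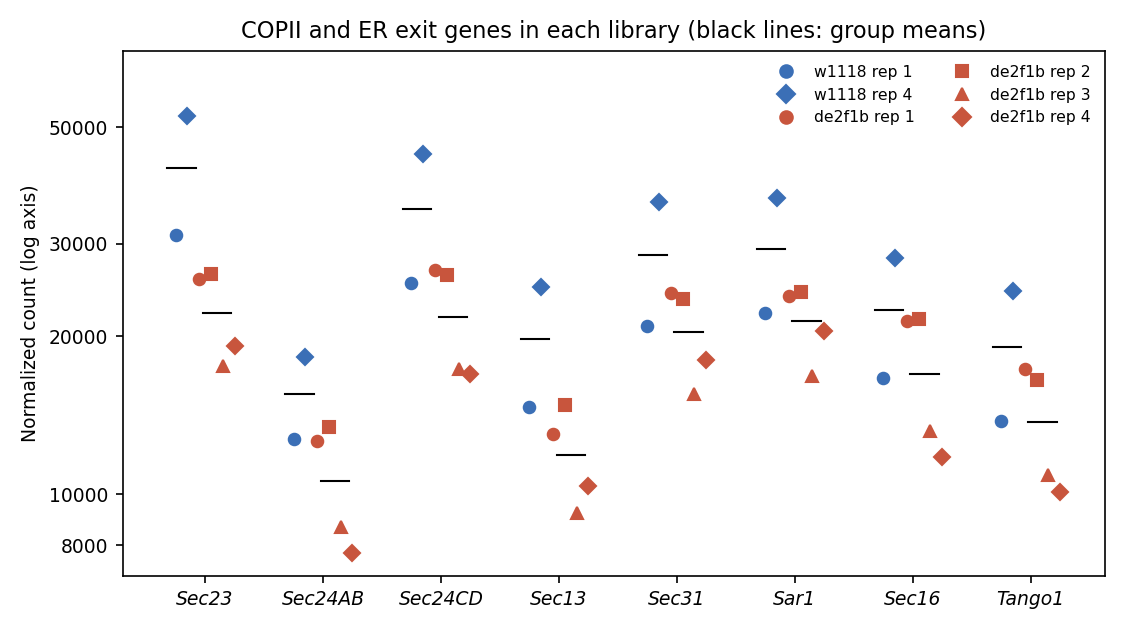
Normalized counts (log axis) of the 8 COPII and ER exit genes in the 2 *w1118* and 4 *de2f1b* libraries, each point 1 library and each black line a group mean. The *w1118* replicate 4 point is the highest in all 8 genes, *de2f1b* replicates 1 and 2 lie near *w1118* replicate 1, and replicates 3 and 4 are the lowest. Only in *Sec23* are all 4 mutant points under both controls, as in 16.0% of all genes tested.

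The 8 genes ranked the libraries in much the same way. In 8 of 8 members *w1118* replicate 4 was above every other library, an order that 28.9% of all 11099 genes tested also showed. Likewise *de2f1b* replicates 1 and 2 were both above replicates 3 and 4 in 8 of 8 members and in 28.9% of all genes. The difference between the controls, replicate 4 minus replicate 1, had a median of 0.76 on the log2 scale over the members (from 0.52 in *Sec24AB* to 0.82 in *Tango1*) and of 0.01 over all genes tested. It was thus larger than the median difference between genotypes. Between pairs of members, Pearson's r of the log2 levels over the 6 libraries ran from 0.854 (*Sec23* and *Sec16*) to 0.991 with a median of 0.952 over 28 pairs, as a description, since all genes of a library share its size factor and its tissue composition.

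Levels of different genes were compared per kb of annotated exon. In *w1118* SGs the order was *Sar1* (16192 ± 5667 per kb, SD, n = 2), *Sec23* (14843 ± 5364), *Sec13* (10926 ± 3983), *Sec24CD* (7229 ± 2817), *Sec31* (6875 ± 2582), *Tango1* (4084 ± 1607), *Sec24AB* (3136 ± 792) and *Sec16* (2312 ± 838). All neighbours in that order overlap in their spread over the 2 controls. Within a library, however, each gene was above its follower in both controls, by as little as 1.04 and 1.06 times for *Sec24CD* over *Sec31*. In *de2f1b* SGs *Sar1* remained first (11772 ± 1935 per kb, SD, n = 4), ahead of *Sec23* (7867 ± 1583) in 4 of 4 libraries and by 1.44 to 1.66 times, compared with 1.08 and 1.10 times in the controls. This was the only pair of neighbours in *de2f1b* whose ranges of mean ± SD did not overlap. *Sec31* (4904 ± 1022) and *Sec24CD* (4516 ± 1120) stood in the reverse order to that in *w1118*, again by small margins of 1.04 to 1.24 times. *Sec24AB* made up 33.0% and 28.6% of the Sec24 level per kb in the controls and 30.8% to 33.3% in the mutants, which overlap. *Sec23* exceeded the sum of both Sec24 genes per kb by 1.41 and 1.44 times in *w1118* and by 1.13 to 1.34 times in *de2f1b*. Exon length is that of all annotated exons joined, so a gene that uses its shorter transcripts is understated.

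**Figure D2:**
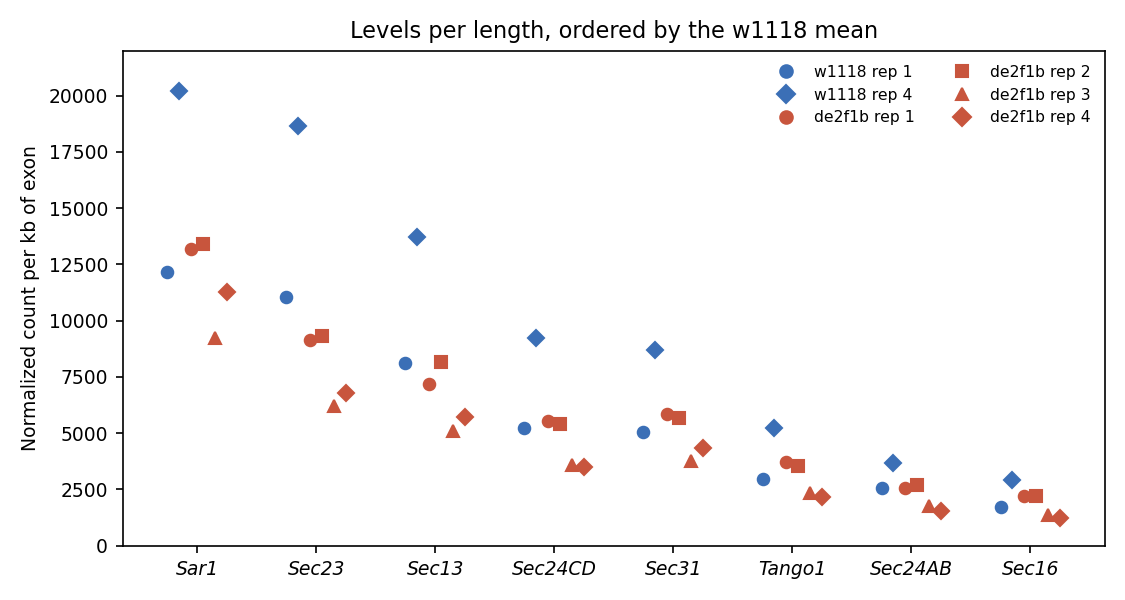
Normalized count per kb of annotated exon for each member and library, ordered by the *w1118* mean. *Sar1* is first and *Sec16* last in both genotypes, and the gap between *Sar1* and *Sec23* is wider in the *de2f1b* libraries (1.44 to 1.66 times) than in *w1118* (1.08 and 1.10 times).

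To ask whether the loss of *de2f1b* was accompanied by a change in the ER exit machinery, each gene was tested across the whole table with limma on log2-transformed normalized counts (pseudocount 1). All 8 members had a lower fitted level in *de2f1b*, as did 48.5% of all genes tested, with a median log2 fold change of −0.51 for the members and 0.02 for all genes. None passed an adjusted p of 0.05 (Benjamini-Hochberg over 11099 genes), a threshold that 1.07% of all genes passed as lower and 3.17% as higher. At an unadjusted p under 0.05, 2 of the 8 members were lower, compared with 9.09% of all genes. No member was higher at that level, compared with 12.5%. The groups were apart, with every mutant library below both controls, in 1 of 8 members and in 16.0% of all genes. The opposite separation was found in 0 members and in 17.4% of all genes. In RNA from whole glands, fewer secretory cells and less RNA per cell cannot be told apart.

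*Sec23* had a mean of 41887 ± 15137 (SD, n = 2) in *w1118* and 22201 ± 4468 (SD, n = 4) in *de2f1b*, and its log2 fold change was −0.89, with a 95% interval from −1.57 to −0.21 (limma, unadjusted p = 0.0179, adjusted p = 0.145). *Sec13*, which also serves in the nuclear pore, was at −0.71, with an interval from −1.39 to −0.03 (unadjusted p = 0.0424, adjusted p = 0.215). The intervals of the other members included 0. They were centred on −0.66 in *Sec24CD* (−1.42 to 0.10) and on −0.57 in *Sec24AB* (−1.25 to 0.12), and between −0.41 and −0.46 in *Sec16*, *Sar1*, *Sec31* and *Tango1*. The widest interval, that of *Sec16*, ran from −1.24 to 0.42, so that these libraries allow differences in either direction.

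The size of these differences depended on which control was used. Relative to *w1118* replicate 4 alone the median over the members was −0.60, −0.60, −1.19 and −1.26 in *de2f1b* replicates 1 to 4. Relative to replicate 1 alone it was 0.10, 0.10, −0.49 and −0.50. When *w1118* replicate 4 was left out, the members had a median of −0.16 and *Sec23* stood at −0.51, and *Sar1*, *Sec31*, *Sec16* and *Tango1* all lay between −0.03 and −0.07. Without replicate 1 the members' median was −0.86. A setting chosen after the data were seen left out both *de2f1b* replicates 3 and 4, the libraries rich in ring gland and muscle markers. The median was then −0.24 and *Sec23* stood at −0.64 (limma, adjusted p = 0.314). In this setting *de2f1b* replicate 1 stayed in, although its midgut markers summed to 461018, against 53314 in replicate 3 and at most 206 elsewhere.

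**Figure D3:**
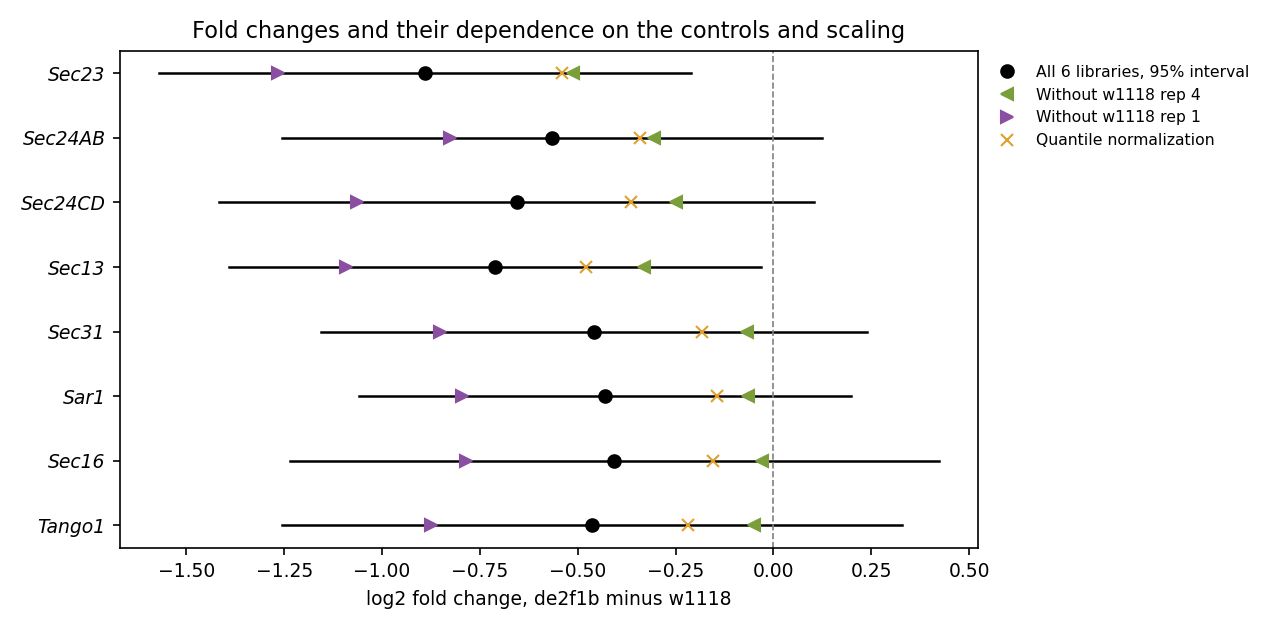
Log2 fold change of each member (*de2f1b* minus *w1118*), with the limma 95% interval from all 6 libraries, and the same value without *w1118* replicate 4, without *w1118* replicate 1, and after quantile normalization. All values are below 0; without replicate 4 those of *Sar1*, *Sec31*, *Sec16* and *Tango1* are between −0.03 and −0.07.

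The scaling of the libraries also mattered. When the libraries were given equal totals instead of the authors' size factors, the median over all genes became 0.17 and that over the members −0.36. *Sec23* then passed the threshold at −0.74 (limma, adjusted p = 0.0487), as 1.05% of all genes did as lower and 2.78% as higher. Under that scaling every mutant library was below both controls in 5 of 8 members (*Sec23*, *Sec24AB*, *Sec24CD*, *Sec13* and *Sar1*), compared with 10.6% of all genes. In the same terms, the 8 genes together took 2411 and 3053 CPM (reads on the genes, scaled to a common total per library) in *w1118* and 2191, 2119, 2063 and 1699 in *de2f1b*, without overlap. When the 50 most abundant genes, which took between 42.4% and 51.5% of the reads, were left out of the total, the CPM were 4321 and 5952 in *w1118* and 4394, 4372, 3582 and 3322 in *de2f1b*, and mutant replicates 1 and 2 were then above *w1118* replicate 1. *Sec23* and *Sec13* kept their separation under this second scaling, which 9.64% of all genes showed. DESeq2 on the recovered whole reads called *Sec23* (adjusted p = 0.0246) and no other member, and called 5.01% of all genes lower and 9.8% higher. edgeR called no member, with 0.802% of all genes lower and 1.78% higher.

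A ratio of 2 genes within a library does not depend on the scaling, and 5 such ratios were compared by an exact two-sided permutation test over the 15 ways to divide the libraries, in which the smallest possible p is 0.0667. The ratios were chosen with earlier results known. Among the 5, the largest difference was in the balance of *Sar1* and *Sec23*, the GTPase and its activator. Its size follows from their log2 fold changes of −0.43 and −0.89. The log2 ratio of *Sar1* to *Sec23* was −0.50 and −0.52 in *w1118* and −0.11, −0.11, −0.06 and 0.09 in *de2f1b*, so that *Sar1* was higher relative to *Sec23* in all 4 mutant libraries. The difference of 0.46 compares with an SD of 0.02 (n = 2) and 0.10 (n = 4) within the groups (exact permutation p = 0.0667, adjusted over the 5 ratios 0.111). It ran from 0.41 to 0.48 when each library was left out in turn, and was 0.40 without mutant replicates 3 and 4.

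The inner coat ratio of *Sec23* to *Sec24CD* was 0.30 and 0.24 in *w1118* and −0.06, 0.01, 0.02 and 0.18 in *de2f1b*, a difference of −0.23. That of *Sec13* to *Sec31* in the cage was −0.51 and −0.54 in *w1118* and −0.89, −0.67, −0.75 and −0.79 in *de2f1b*, a difference of −0.25. In both the groups did not overlap, again at the smallest exact permutation p of 0.0667 (adjusted 0.111). These 3 ratios thus could not pass a threshold of 0.05 in a design of this size. Those of *Sar1* to *Sec23* and of *Sec23* to *Sec24CD* share a gene, so they are not independent. A ratio that did not overlap between the groups was common, found in 34.2% of all pairs of genes tested and in 12 of the 28 pairs of members. *Sec24AB* to *Sec24CD* (difference 0.09, exact permutation p = 0.467) and *Tango1* to *Sec16* (−0.06, exact permutation p = 0.333) had overlapping groups. The Sec24 ratio was −0.99 and −1.28 in the 2 controls and between −1.13 and −0.96 in the mutants, and it turned to −0.06 in difference without *w1118* replicate 4.

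**Figure D4:**
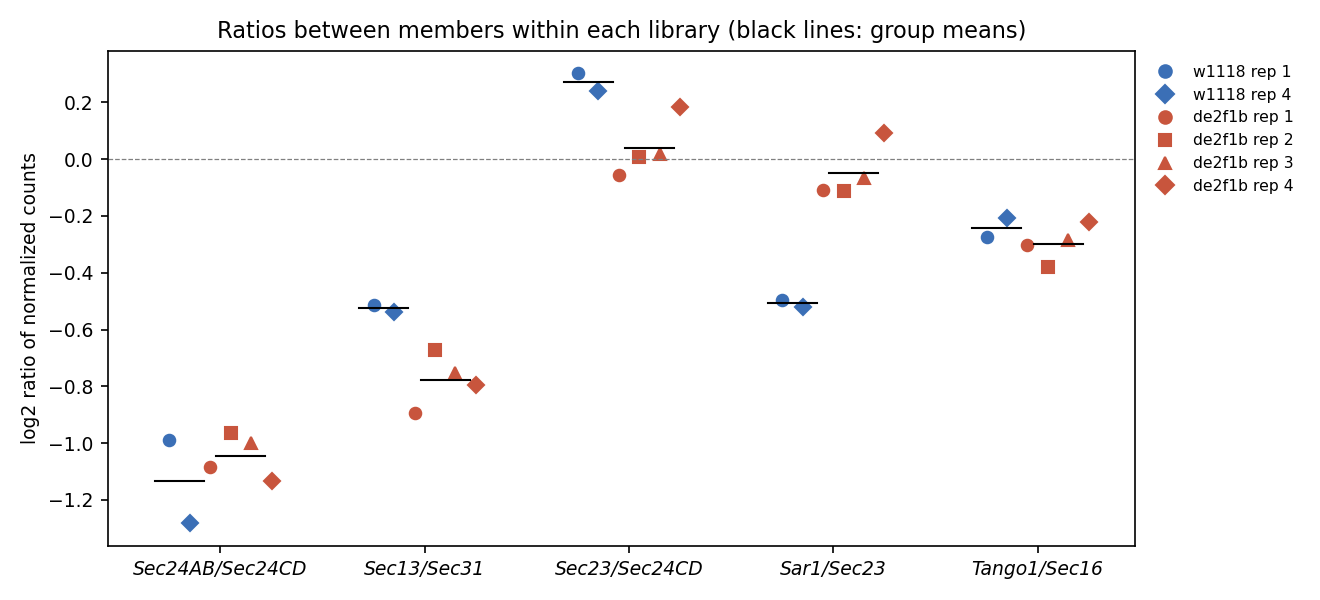
Log2 ratio of normalized counts between pairs of members within each library, with group means as black lines. The groups do not overlap for *Sar1* to *Sec23* (−0.50 and −0.52 against −0.11 to 0.09), *Sec23* to *Sec24CD* and *Sec13* to *Sec31*, and they overlap for the other 2 ratios.

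Other genes of the early secretory pathway were also highest in *w1118* replicate 4 and lowest in *de2f1b* replicates 3 and 4, by the mean of each list. The coat of the return route, COPI, had 8 genes with a median log2 fold change of −0.75 (from −0.88 in *deltaCOP* to −0.54 in *zetaCOP*). In 6 of them every mutant library was below both controls (16.0% of all genes), and limma called 0 lower (1.07%). DESeq2 called 1 of the 8 lower (5.01% of all genes), and limma after scaling to equal totals also called 1 (1.05%). Without *w1118* replicate 4 the median was −0.40, and without replicate 1 it was −1.15. The 6 genes of the translocon, through which secretory proteins enter the ER, ran from −0.94 in *Sec61beta* to −0.39 in *Trp1*, the fly Sec62. Of these, 4 lay below both controls (16.0% of all genes), and limma called 0 lower (1.07%) or higher (3.17%). DESeq2 called 3 of the 6 lower (5.01% of all genes), and limma after scaling to equal totals called 2 (1.05%). The median of the 6 genes was −0.71. It moved to −0.42 without *w1118* replicate 4 and to −0.998 without replicate 1. Relative to COPI, the mean log2 level of the COPII and ER exit genes was −0.62 and −0.60 in *w1118* and −0.31, −0.43, −0.43 and −0.63 in *de2f1b*. Relative to the translocon it was −0.69 and −0.60 in *w1118* and −0.35, −0.51, −0.45 and −0.74 in *de2f1b*. The groups overlapped in both.

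The 12 listed receptors that carry cargo between ER and Golgi had 11 members tested, since *p24-2* was at 0 in every library. All 11 had a lower fitted level (48.5% of all genes), with a median of −0.42. Of them 5 lay below both controls (16.0%), and limma called 0 lower (1.07%). DESeq2 called 1 of the 11 lower (5.01%), and limma after scaling to equal totals called 0 (1.05%). The median of the receptors was −0.24 without *w1118* replicate 4 and −0.81 without replicate 1. The lowest was *ergic53*, a lectin that takes glycoproteins into COPII carriers, at −0.82 (limma, adjusted p = 0.163). The 10 genes that tether and fuse the carriers at the Golgi had a median of −0.72. It was −0.33 without *w1118* replicate 4 and −1.09 without replicate 1. Of these genes, 5 lay below both controls (16.0% of all genes), and limma called 0 lower (1.07%) or higher (3.17%). DESeq2 called 2 of the 10 lower (5.01% of all genes), and limma after scaling to equal totals called 1 (1.05%). *Membrin*, a Golgi SNARE, had the lowest value at −1.40, with a mean of 4088 ± 1616 (SD, n = 2) in *w1118* and 1518 ± 346 (SD, n = 4) in *de2f1b* (limma, adjusted p = 0.0571). Over the alternatives its adjusted p ranged from 5.74e-04 to 0.406. The 10 TRAPP genes, a tethering complex, were nearer to 0, with a median of −0.19 and 0 below both controls (16.0% of all genes). Without *w1118* replicate 4 their median was 0.00, and without replicate 1 it was −0.36.

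Sec13 also works outside the coat, in the outer ring of the nuclear pore and in GATOR2, a regulator of TOR signalling. The 9 genes of its partners there had a median log2 fold change of −0.05. Of these, 2 lay below both controls and 1 above, near the shares of 16.0% and 17.4% over all genes. Among them 0 were called, compared with 1.07% of all genes as lower and 3.17% as higher. The lowest was *Nup75* at −0.35 (limma, adjusted p = 0.355). Their mean level in *w1118* replicate 4 was 0.07 above that in replicate 1 on the log2 scale, while that of the COPII and ER exit genes was 0.74 above it. *Sec13* itself differed between the controls by 0.76.

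**Figure D5:**
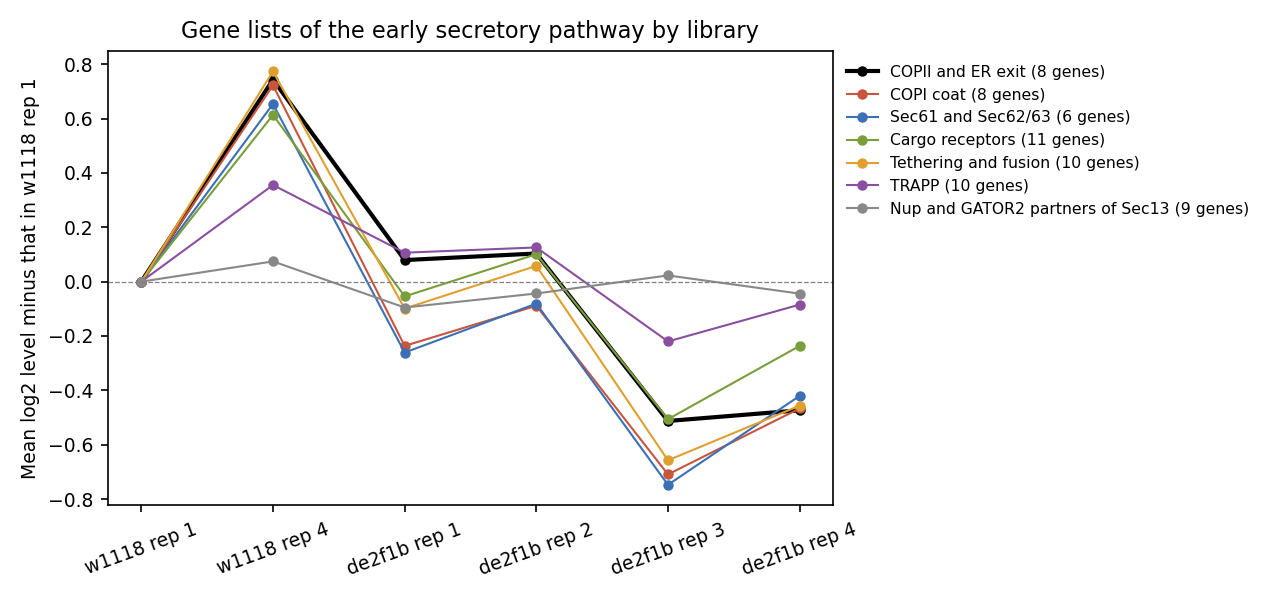
Mean log2 level of 7 gene lists in each library relative to *w1118* replicate 1, with lines only joining the points of a list. The COPII and ER exit genes (black) stand at 0.74 in *w1118* replicate 4, 0.08 and 0.10 in *de2f1b* replicates 1 and 2, and −0.51 and −0.47 in replicates 3 and 4, and the COPI, translocon, cargo receptor and tethering lists are likewise highest in *w1118* replicate 4 and lowest in *de2f1b* replicates 3 and 4, while the nuclear pore and GATOR2 partners of Sec13 stay between −0.10 and 0.07.

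Genes that act in the SG itself varied between the libraries too. *CrebA*, a transcription factor that activates secretory pathway genes in the fly SG and that was chosen here after its values were seen, had 30636 and 56104 in *w1118* and 28221, 29751, 16122 and 16412 in *de2f1b*. Its log2 fold change was −0.93 (limma, adjusted p = 0.218), and was −0.50 without *w1118* replicate 4 and −1.37 without replicate 1. Of the 10 listed regulators, 6 had a lower fitted level and 4 a higher one. *Ire1*, on which the study centres, was at −0.62 (limma, adjusted p = 0.126), with every mutant library below both controls. Its target *Xbp1* was at −0.35 (limma, adjusted p = 0.491), with overlapping groups. In 4 of the 10 listed regulators of ER and secretory genes every mutant library was below both controls (16.0% of all genes). In 1 every mutant library was above both (17.4%). Of the 10 regulators DESeq2 called 2 lower (5.01% of all genes) and 1 higher (9.8%). In limma 0 were called lower (1.07% of all genes) and 1 higher (3.17%). This was *crc*, which encodes the stress-response factor ATF4, at 0.76 (limma, adjusted p = 0.0330), a call that was lost when any 1 library was left out (adjusted p from 0.0504 to 0.197), although the log2 fold change stayed between 0.69 and 0.83. Over all alternatives its adjusted p ranged from 6.63e-09 to 0.594. The lowest regulator was *sage*, an SG-specific factor, at −1.12 (limma, adjusted p = 0.187). The glue genes, the main cargo of this route, summed to normalized counts of 11523600 and 22793700 in *w1118* and of 18154400, 21146700, 8681760 and 10511100 in *de2f1b*. Of the 8 glue genes 0 were called lower (1.07% of all genes) or higher (3.17%). Their median was −0.24, which became 0.32 without *w1118* replicate 4 and −0.73 without replicate 1. The summed SG markers were lowest in mutant replicates 3 and 4 (4996900 and 6803130) and highest in *w1118* replicate 4 (12477700). This sum is made up mostly of *Sgs3*, *Sgs7* and *Sgs8*, so it largely repeats the glue genes. The listed SG markers that are not glue genes, among them *sage* and *CrebA*, were each highest in *w1118* replicate 4 and lowest in mutant replicates 3 and 4. The part of tissue composition and of gland stage in the member values was not tested.

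The 10 protein-coding genes whose pattern over the 6 libraries was most like the mean of the members, by Pearson's r of log2 levels, were *GCC88*, *Srp72*, *JhI-21*, *alphaCOP*, *Rchy1*, *Syx5*, *TBC1D23*, *Ufl1*, *CG9132* and *Sap47*. Their r ran from 0.996 to 0.999 over 7897 genes ranked. Of these, *alphaCOP* is a COPI gene and *Syx5* encodes a Golgi syntaxin of the fusion list. The pattern was a common one, with r over 0.9 in 13.0% of the genes ranked.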

How the data were processed

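RNA-seq of SGs was analysed in 6 libraries. Alignment by the authors used STAR 2.7.6a and counting per gene featureCounts 1.6.0. The deposited signal is a normalized count, which the authors obtained by dividing reads by the size factor of the library, and their mean over libraries stands beside it. The authors' DESeq2 results in the same table (log2 fold changes, standard errors, a test statistic as a score, p-values) were not used. Within a tolerance of 0.01 reads, 100.0% of the values of each library were whole multiples of its smallest value, so whole reads were recovered. At this depth 3 reads, the limit for a gene without reads at 95% confidence, equal a normalized count of 2.35 to 4.11, which covers counting error only.

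Genes that reached a normalized count of 10 in 2 or more libraries entered limma 3.58.1 (R 4.3.3) on log2(normalized count + 1), fitted on genotype alone with a variance trend. Its two-sided p-values were adjusted by Benjamini-Hochberg over 11099 genes. Fold changes are on that log2 scale. edgeR 4.0.16 and DESeq2 1.42.0 were run on the recovered reads as alternatives. The 3 tests were also run on simulated counts. These had the same dispersion for every gene and no differences in tissue content, so they do not measure the error of the tests on these libraries. Other alternatives changed the pseudocount, the filter, the scaling, the variance model, the replicate block and the libraries used. Groups came from the sample titles and columns from the sample descriptions. The members, lists and ratios were chosen with earlier results of these data known. Named genes were all members, list genes past the threshold or at the end of a list, and the 10 genes most like the members. Besides these, *E2f1* as the targeted gene and *CrebA*, *Ire1*, *Xbp1*, *p24-2* and *Yp1* were named after their values were seen. Promoter and protein sequences were not analysed here, nor was the search for motifs. Summaries were made in Python 3.11.15 (pandas 2.3.3) and plots with Matplotlib 3.10.9.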

Additional observations from a re-analysis of the deposited data

How the results depend on the processing

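All 8 members kept a negative log2 fold change under each of the 20 alternatives run, with medians from −0.86 to −0.16. Only *Sec23* crossed the threshold, in 2 of them, so that 1 member was called lower by DESeq2 on the recovered reads and 1 after scaling to equal totals. Leaving out each library in turn gave 69 to 216 genes called higher and 5 to 66 lower over the whole table, where 352 and 119 were called with all libraries. Without *w1118* replicate 4 the members' median was −0.16 and without *w1118* replicate 1 it was −0.86. The *Sec24AB* to *Sec24CD* log2 ratio difference ranged from −0.0568 to 0.238 when each library was left out in turn, negative only without *w1118* replicate 4. Over all genes DESeq2 called 1088 higher and 556 lower, edgeR 198 higher and 89 lower, the fit without a filter 208 and 71, quantile normalization 201 and 120, and the fit without mutant replicates 3 and 4 gave 111 and 43. The share of calls that were higher was 74.7%, 62.6% under quantile normalization, and 87.7% and 93.2% without *w1118* replicate 1 or 4. With the replicate number as a block 5 genes were higher and 2 lower, *Sec23* stood at −0.86 (limma, adjusted p = 0.696) and the members' median was −0.55. Libraries with the same number did not deviate together (r of −0.32 and −0.36 across genes for replicates 1 and 4). With 2 controls, however, the deviations of one from the group mean mirror those of the other. These r values therefore cannot decide whether the numbers pair the libraries.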

Other observations

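Nervous system markers, a list not used above, were also above all other libraries in both *de2f1b* replicates 3 and 4, in 7 of 8 genes. Their mean log2 level relative to *w1118* replicate 1 was 3.30 and 2.41 in those libraries and between −1.42 and −0.65 in *w1118* replicate 4 and *de2f1b* replicates 1 and 2. The exception was *Syt1*, the most abundant of the 8, which had 3533 and 5887 in replicates 3 and 4 and 5871 in *w1118* replicate 4. Midgut markers summed to 461018 in *de2f1b* replicate 1 and to 53314 in replicate 3, and to at most 206 elsewhere. Of the hemocyte markers 3 of 8 were below both controls in every mutant library and 2 were above both, against 16.0% and 17.4% of all genes. Of the 8 fat body markers only *Yp1* was near 0, with at most 3.67 in any library.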
